A study of Mus musculus with 10 samples.

Results

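The genes described are 37 mouse genes of T cell identity and T cell receptor signalling, out of 30984 genes measured in blood. The list was chosen with earlier results of these data known. Each symbol was then looked up in the deposited table, and all 37 were found. The burn group is 6 libraries whose treatment label reads burn wound healing, set against 4 whose label carries the added letters NC. What NC stands for is not spelled out, and no strain, age, sex, time after injury or dose of manganese chloride, the compound in the series title, is given for any library. All 10 libraries carry the labels whole blood, lymphocyte and monocytes, whereas the title names PBMCs (blood mononuclear cells). Nothing in the labels ties the libraries to separate mice, so each p-value below speaks for the spread among these libraries and may reflect technical spread alone.

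A T cell recognises antigen through a receptor whose alpha and beta chains bind peptide held by an MHC molecule, while the CD3 chains and the zeta chain carry the signal into the cell. The coreceptors CD4 and CD8 bring the kinase Lck to the receptor, Lck phosphorylates the CD3 and zeta tails, and Zap70 docks there and phosphorylates the adaptor Lat. From Lat the signal branches to calcium, protein kinase C and Ras. Most T cells in blood are resting cells that travel between lymph nodes.

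The 3 CD3 genes lie side by side on chromosome 9. Cd3g (ENSMUSG00000002033, chromosome 9, 44969572 to 44980431, minus strand) and Cd3d (ENSMUSG00000032094, chromosome 9, 44981786 to 44987339, plus strand) point away from each other, and Cd3e (ENSMUSG00000032093, chromosome 9, 44998740 to 45009627, minus strand) follows, with positions on mm10. Their promoters are shown because the 3 genes serve below as the measure of T cell signal and were all highest in the same library. Each window runs over 250 bases before and 50 after a RefSeq gene start (GRCm38.p6), 5′ to 3′ on the strand of the gene. Capitals mark AGGAAG on either strand (CTTCCT on the other), letters that contain the core bound by ETS factors such as Ets1.
Cd3g, chr9:44980382-44980681, minus strand: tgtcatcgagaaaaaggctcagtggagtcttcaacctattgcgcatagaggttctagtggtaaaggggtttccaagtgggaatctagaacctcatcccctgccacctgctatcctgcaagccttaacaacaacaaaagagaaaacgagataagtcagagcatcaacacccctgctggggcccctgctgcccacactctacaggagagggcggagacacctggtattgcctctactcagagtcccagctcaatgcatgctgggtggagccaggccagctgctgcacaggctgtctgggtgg
Cd3d, chr9:44981536-44981835, plus strand: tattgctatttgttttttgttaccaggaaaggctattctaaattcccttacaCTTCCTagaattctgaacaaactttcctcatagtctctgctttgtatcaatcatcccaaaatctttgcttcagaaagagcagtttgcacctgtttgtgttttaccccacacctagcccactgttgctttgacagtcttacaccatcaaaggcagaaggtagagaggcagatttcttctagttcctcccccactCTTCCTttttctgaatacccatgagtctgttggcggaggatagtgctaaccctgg
Cd3e, chr9:45009562-45009861, minus strand: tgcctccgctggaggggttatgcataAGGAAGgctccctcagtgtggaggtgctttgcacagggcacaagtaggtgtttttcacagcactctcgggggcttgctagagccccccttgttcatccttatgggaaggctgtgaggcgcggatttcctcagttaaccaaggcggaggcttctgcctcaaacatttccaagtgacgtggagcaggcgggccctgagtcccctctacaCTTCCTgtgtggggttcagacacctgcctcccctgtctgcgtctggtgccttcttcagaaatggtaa
The Cd3g window held 0 matches, and those of Cd3d and Cd3e held 2 each. RefSeq promoters were found for 23 of the 37 genes, in 39 windows, some of them neighbouring starts of 1 gene. The letters occurred in 19 of these windows (48.7%), and in 35.4% of all 32851 windows. A match is a description of letters, not a measured binding site.

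The beta chain constant genes need care, because their first exons are almost the same. Trbc1 (ENSMUSG00000076490, chromosome 6, 41538218 to 41539881, plus strand) and Trbc2 (ENSMUSG00000076498, chromosome 6, 41546730 to 41548352, plus strand) each encode the constant part of a receptor beta chain. Their first exons, of 375 bases each in GENCODE release M21 (mm10), differed at 1 position, C260A, counted from 1 at the 5′ end of the exon and with the Trbc1 base first. The stretch around it is printed for both genes, with the differing base in capitals.
Trbc1, chr6:41538432-41538521, plus strand: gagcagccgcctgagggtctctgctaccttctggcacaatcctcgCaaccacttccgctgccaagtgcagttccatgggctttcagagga
Trbc2, chr6:41546944-41547033, plus strand: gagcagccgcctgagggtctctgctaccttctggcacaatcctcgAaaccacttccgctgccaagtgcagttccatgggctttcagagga
Of all 31-base stretches in the Trbc1 transcript, 45.4% also occurred in that of Trbc2, and 48.5% of those of Trbc2 occurred in that of Trbc1. How reads matching both genes were counted is not stated, so the separate values of the pair are uncertain.

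Library totals ran from 30677206 to 36379663 counts, and no T cell gene had fewer than 472 counts in any library, so counting error was small beside the spread between libraries. Haemoglobin genes took 7.17% to 12.8% of counts. Every marker looked up for red cells (10 genes), neutrophils (15), monocytes (13), platelets (15), B cells (15) and NK cells (16) had counts in at least 1 library. All 37 T cell genes passed the filter on low counts. In bulk blood, fewer T cells and less RNA per T cell cannot be told apart.

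Per gene length, the T cell genes spanned a wide range of levels, in FPKM (fragments scaled by gene length and library total). The highest was Klf2, a transcription factor of resting T cells that other blood cells also express, with 284 ± 21.9 FPKM in burn and 285 ± 43.8 FPKM in NC (mean ± SD, n = 6 and 4). Trbc2 averaged 215 ± 26.3 FPKM in burn and 214 ± 100.1 FPKM in NC, and Trac, the alpha chain constant region, 158 ± 30.3 FPKM in burn and 164 ± 70.6 FPKM in NC. The lowest were Ubash3a, a negative regulator of receptor signalling, with 4.32 ± 0.475 FPKM in burn and 4.04 ± 0.449 FPKM in NC, and Gata3, a transcription factor of helper T cells and innate lymphoid cells, with 4.19 ± 0.401 FPKM in burn and 4.98 ± 1.37 FPKM in NC. In all, 32 of the 37 averaged more than 10 FPKM over the 10 libraries.

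Burn and NC libraries were then compared to ask whether T cell genes differ between the groups. None of the 37 passed. With edgeR's quasi-likelihood test and Benjamini-Hochberg adjustment over all 17268 genes tested, 0 of 37 had an adjusted p under 0.05, against 0% of all genes. The smallest adjusted p was 0.393, for these genes as for all genes. At an unadjusted p under 0.05 there were 7 of the 37 with higher values in burn, against 4.25% of all genes, and 0 with lower values, against 7%, which is 18.9% of the 37 against 11.3% of all genes in either direction. DESeq2 called 1 of the 37, Ablim1, against 0.493% of all genes. The 37 were chosen with earlier results of these data known, so these shares are a description and not a test. Values were higher in burn for 23 of the 37 and lower for 14, with a median log2 difference (burn minus NC) of 0.06, beside 0.02 and 54.7% higher over all genes. On deposited FPKM, without TMM scaling (a correction of library totals for a few dominant genes), 31 were higher and 6 lower, without NC 3 it was 33 and 4, and without NC 1 it was 15 and 22, so the sign of genes near 0 was not stable.

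**Figure D1:**
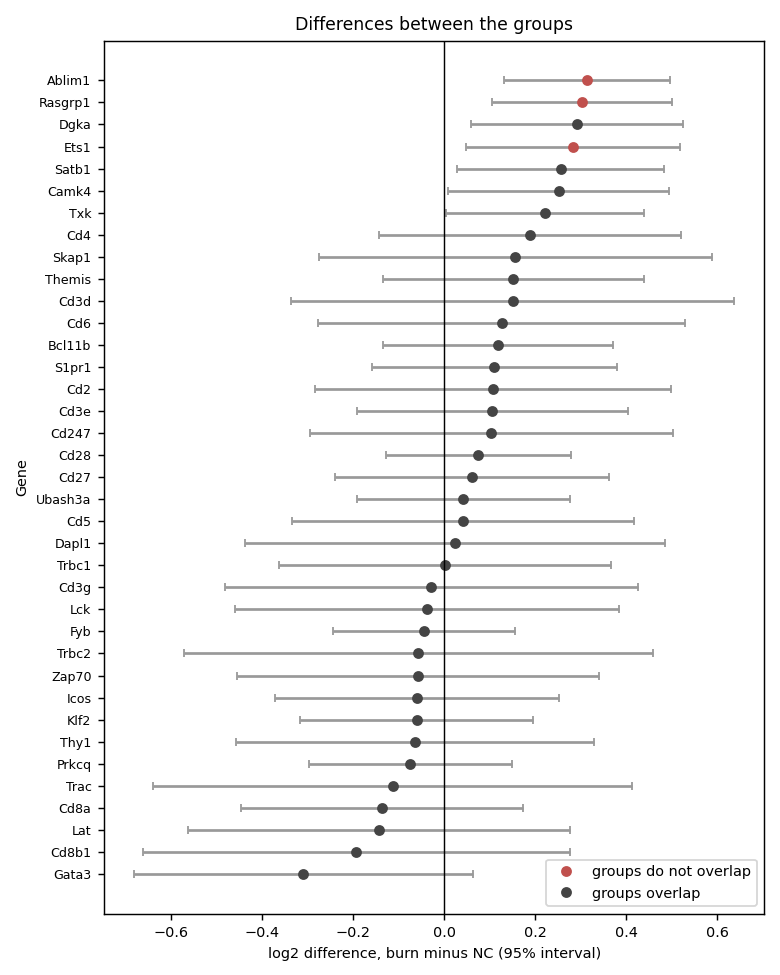
Log2 difference of burn minus NC (horizontal axis) for each of the 37 T cell genes (vertical axis), with 95% intervals from edgeR. Differences lie between -0.31 for Gata3 and 0.31 for Ablim1, and the genes whose burn and NC libraries do not overlap are Ablim1, Rasgrp1 and Ets1.

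The receptor chains did not pass, and most of their highest and lowest values were both in NC. Levels below are CPM, counts scaled to a common library total after TMM correction. Cd3g, the CD3 gamma chain, measured 149 to 201 CPM in burn (median 176) and 128, 163, 286 and 132 CPM in NC 1 to 4. All burn values lay above NC 1 and NC 4 and below NC 3. Cd3d, the delta chain, measured 110.4 to 159 CPM in burn (median 124) and 70.0, 111, 188 and 98.1 CPM in NC 1 to 4. For Cd3e, the epsilon chain, the values were 79.1 to 102 CPM in burn (median 93.4) and 71.1, 88.2, 110.5 and 72.3 CPM in NC 1 to 4. All 3 genes were highest in NC 3 and lowest in NC 1. Their log2 differences were -0.03 for Cd3g (SE 0.21), 0.15 for Cd3d (SE 0.22) and 0.11 for Cd3e (SE 0.14), with edgeR adjusted p-values of 0.97, 0.84 and 0.81.

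The zeta chain and the antigen-binding chains had a similar layout. Cd247, the zeta chain (ENSMUSG00000005763, chromosome 1, 165788681 to 165877277, plus strand), measured 104 to 139 CPM in burn (median 124) and 82.8, 110.4, 172 and 91.7 CPM in NC 1 to 4. Trac (ENSMUSG00000076928, chromosome 14, 54220521 to 54224206, plus strand) measured 112 to 175 CPM in burn (median 153) and 116, 135, 267 and 113 CPM in NC 1 to 4. For Trac, NC 3 lay above every other library, and the other 3 NC libraries fell within the burn range. Trbc2 measured 124 to 165 CPM in burn (median 151) and 100.4, 130.2, 266 and 114 CPM in NC 1 to 4. For Trbc1 the values were 69.5 to 95.3 CPM in burn (median 83.2) and 69.7, 75.9, 119 and 61.3 CPM in NC 1 to 4. Burn and NC overlapped for all 4 genes, and NC 3 was again the highest library. The 95% intervals of the log2 differences were -0.30 to 0.50 for Cd247, -0.64 to 0.41 for Trac, -0.57 to 0.46 for Trbc2 and -0.36 to 0.37 for Trbc1, all of which include 0.

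NC 3 was the highest of the 10 libraries for 7 of 7 receptor chains, and NC 1 the lowest for 5 of 7. Without NC 3, the log2 differences ran from 0.21 for Trbc1 to 0.45 for Cd3d, and none passed in edgeR (smallest adjusted p 0.24). Leaving out both NC 2 and NC 3, chosen after seeing the data, gave 0.43 for Trbc2 and 0.40 for Cd3g, which did not pass (edgeR adjusted p 0.14 and 0.15). These were not the largest differences in that setting. Cd3d lay further apart, with 70.0 and 98.1 CPM in NC 1 and NC 4 against a burn mean of 129 CPM. None of the 7 chains was called there.

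**Figure D2:**
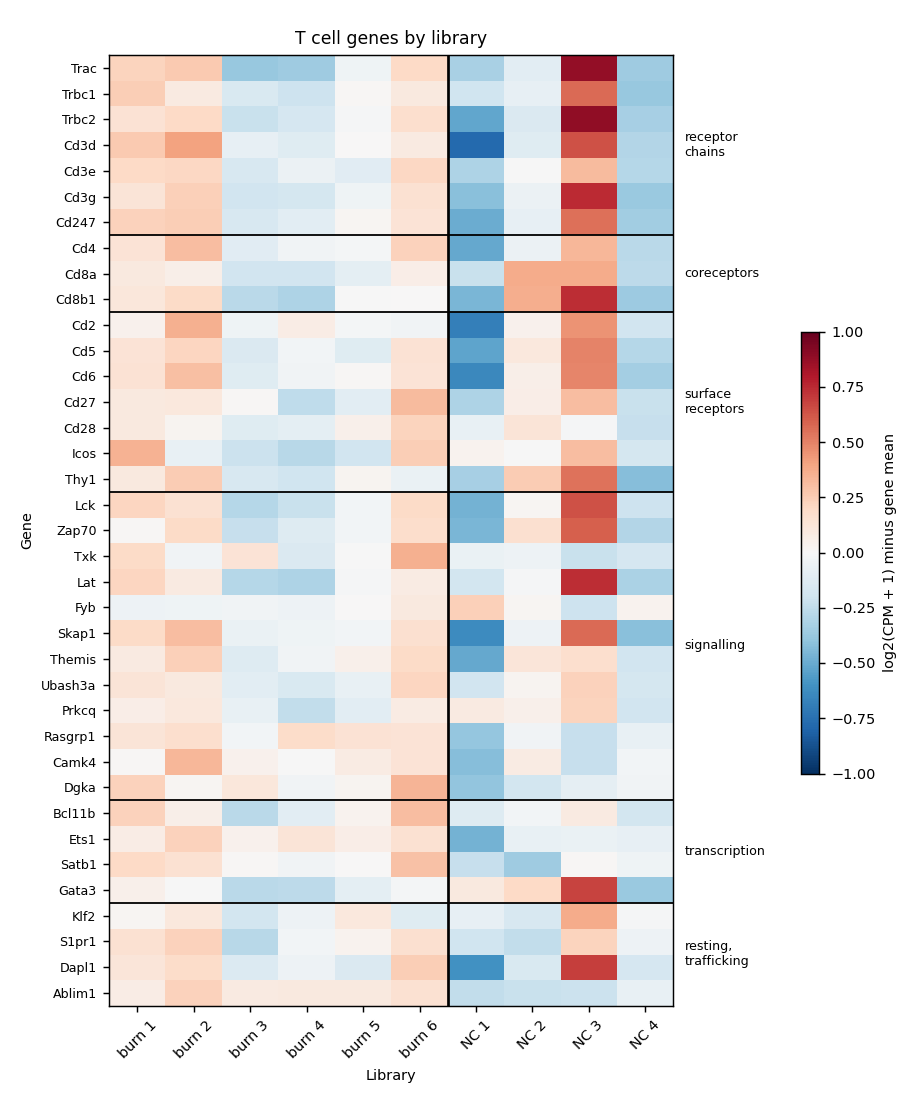
Log2(CPM + 1) of each T cell gene (rows, grouped by role) in each library (columns, burn left of NC) as a difference from the mean of that gene over the 10 libraries, red above and blue below it. NC 3 stands out as the highest column for the receptor chains, and NC 1 is the lowest library for 22 of the 37 genes.

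The spread was wider in NC for 34 of the 37 genes, beside 77.4% of all genes tested. In log2 units, the median SD of the 37 was 0.17 in burn and 0.36 in NC, and that of all genes 0.16 in burn and 0.25 in NC. Receptor chains had the widest NC spread of the 6 roles, with a median SD of 0.18 in burn and 0.54 in NC, and the transcription and chromatin factors the narrowest, with 0.13 in burn and 0.18 in NC. The 7 receptor chains together summed to 753 to 1027 CPM in burn and to 637, 814, 1409 and 682 CPM in NC 1 to 4.

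Markers of other blood cells differed among the same libraries. Over all genes tested, 7% had an unadjusted edgeR p under 0.05 with lower values in burn. The NK cell markers, with values lower in burn for 16 of 16 (13 at an unadjusted p under 0.05, 0 called by edgeR and 1 by DESeq2), summed to 465 to 728 CPM in burn and to 685, 1354, 1450.1 and 408 CPM in NC 1 to 4. The neutrophil markers were lower in burn for 15 of 15, though 1 of them, Ltf, averaged 74.1 CPM in both groups. Of the 15, 4 had an unadjusted p under 0.05, with 0 called by edgeR and 0 by DESeq2. The neutrophil markers summed to 958 to 2818 CPM in burn and to 6901, 773, 1129 and 4896.5 CPM in NC 1 to 4. NC 2 thus lay below every burn library. NC 1 and NC 4, the libraries with the most neutrophil RNA, had the least receptor chain RNA, and NC 3 was highest for NK markers and receptor chains alike. The platelet markers, lower in burn for 14 of 14 tested (6 at an unadjusted p under 0.05, 0 called by edgeR and 0 by DESeq2), summed to 3007 to 6200.4 CPM in burn and to 15078, 7692.5, 6957 and 3512.5 CPM in NC 1 to 4. Monocyte markers were higher in burn for 4 and lower for 9, and red cell markers higher for 5 and lower for 5, with 0 called by either tool and 0 at an unadjusted p under 0.05. None of these markers was at 0 in all libraries, and their part in the T cell values was not tested.

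**Figure D3:**
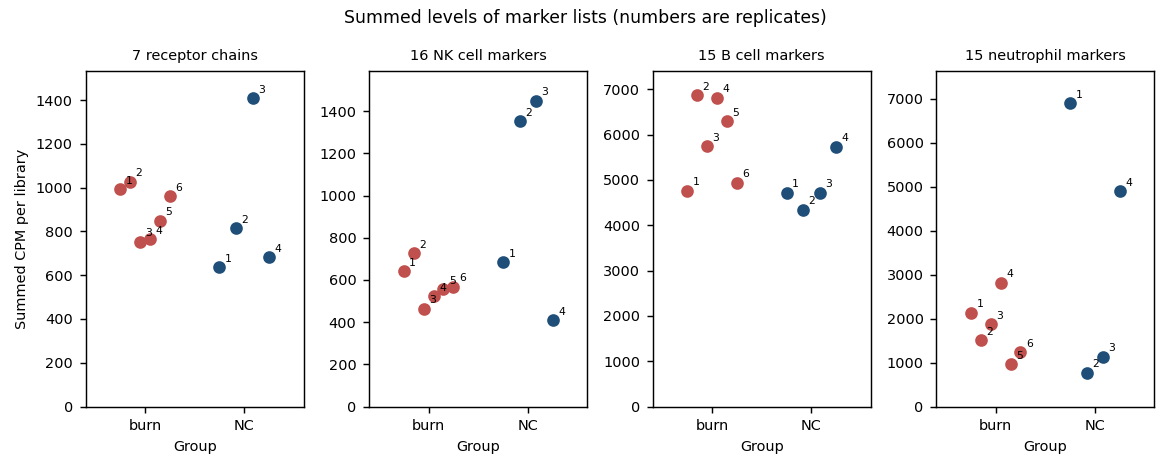
Summed CPM per library (vertical axes, from 0) of the 7 receptor chains and of markers of NK cells, B cells and neutrophils, with burn left of NC and replicate numbers beside the points. NC 3 has the highest receptor chain sum, 1409 CPM, against at most 1027 CPM in burn.

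None of the 3 coreceptor genes passed. Cd4, the coreceptor of helper T cells (ENSMUSG00000023274, chromosome 6, 124864692 to 124888221, minus strand), measured 179 to 240.1 CPM in burn (median 202) and 135, 185, 244 and 161 CPM in NC 1 to 4. Cd8a, the CD8 alpha chain (ENSMUSG00000053977, chromosome 6, 71373427 to 71379173, plus strand), measured 121 to 149 CPM in burn (median 137) and 119, 179.9, 179.7 and 115 CPM in NC 1 to 4. Cd8b1, the CD8 beta chain (ENSMUSG00000053044, chromosome 6, 71322788 to 71337494, plus strand), measured 107 to 152 CPM in burn (median 133) and 96.6, 171, 222 and 103 CPM in NC 1 to 4. For all 3 genes the burn values lay inside the NC range. Their log2 differences were 0.19 for Cd4 (SE 0.15), -0.14 for Cd8a (SE 0.14) and -0.19 for Cd8b1 (SE 0.21), with edgeR adjusted p-values of 0.66, 0.75 and 0.77.

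Within a library, Cd8a relative to Cd4 was lower in every burn library than in every NC library. The log2 ratio of CPM + 1 was -0.51, -0.73, -0.56, -0.63, -0.56 and -0.65 in burn 1 to 6, against -0.19, -0.04, -0.44 and -0.48 in NC 1 to 4. Its mean was -0.61 ± 0.08 in burn and -0.29 ± 0.21 in NC (SD, n = 6 and 4), a difference of -0.32. The two-sided exact permutation test, with 210 assignments of the libraries, gave p = 0.0048, the smallest it can give, and 0.019 after Benjamini-Hochberg adjustment over the 4 ratios computed. The ratio was chosen with earlier results of these data known, so this p is not independent support for a difference. The groups were close at the edge, where burn 1 had -0.51 and NC 4 had -0.48.

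The CD8 beta chain gave a difference of like size with groups that overlapped. With Cd8b1 in place of Cd8a, chosen after seeing the data, the ratio averaged -0.67 ± 0.11 in burn and -0.34 ± 0.26 in NC, a difference of -0.33 (exact permutation p = 0.019, n = 6 and 4). NC 4, at -0.64, lay within the burn range. Without NC 2 and NC 3, where NK markers were highest, the Cd8a to Cd4 difference was -0.27 (exact permutation p = 0.036), and without NC 1 and NC 3 it was -0.35 (exact permutation p = 0.036), both chosen after seeing the data and both with the smallest p that 8 libraries allow. The part of NK and myeloid cells in these ratios was not tested.

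For the beta constant genes, the log2 ratio of Trbc1 to Trbc2 averaged -0.84 ± 0.08 in burn and -0.83 ± 0.26 in NC. The difference of -0.01 was smaller than the spread within either group (exact permutation p = 0.94, n = 6 and 4). Both extremes were NC libraries, NC 1 at -0.52 and NC 3 at -1.16.

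**Figure D4:**
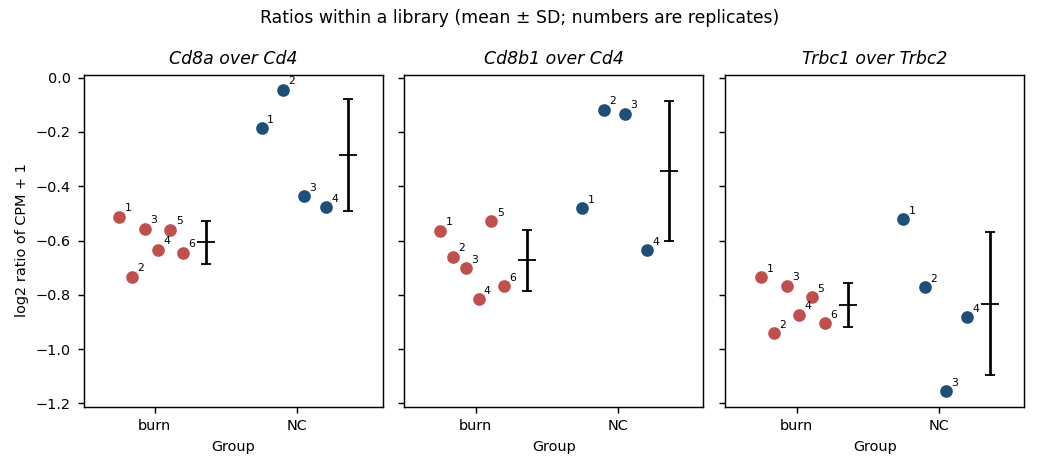
Log2 ratios of CPM + 1 within each library (vertical axes) for pairs of T cell genes, with burn left of NC, replicate numbers beside the points and bars for mean ± SD. For Cd8a over Cd4 every burn point lies below every NC point, the closest being burn 1 at -0.51 and NC 4 at -0.48, while the groups overlap for the other pairs.

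Among the 7 costimulatory and surface receptors, 0 passed and 0 had an unadjusted p under 0.05. Cd2, Cd5 and Cd6, which tune adhesion and receptor signalling, differed by log2 values of 0.11, 0.04 and 0.13. The costimulatory receptors Cd28, Icos and Cd27 differed by 0.07, -0.06 and 0.06, and Thy1, a surface protein of mouse T cells, by -0.06 (SE 0.18). NC 3 was highest for 4 of the 7 and NC 1 lowest for 4. Cd28 varied little, its highest library having 1.37 times the CPM of its lowest, against 2.69 times for Cd3d.

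Of the 12 kinases, adaptors and regulators, 0 passed and 4 had an unadjusted p under 0.05. All 4 had higher values in burn, against 4.25% of all genes. The kinases at the head of the pathway were not among the 4. Lck measured 202 to 288 CPM in burn (median 259) and 178, 251, 385 and 215 CPM in NC 1 to 4. Zap70 measured 56.3 to 75.5 CPM in burn (median 65.9) and 48.0, 73.9, 101 and 53.8 CPM in NC 1 to 4. Both were highest in NC 3 and lowest in NC 1, like the CD3 chains. Their log2 differences were -0.04 (SE 0.19) and -0.06 (SE 0.18), with edgeR adjusted p-values of 0.96 and 0.93.

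The adaptors Lat and Skap1 differed by -0.14 and 0.16 on the log2 scale, and neither passed. Themis, needed for T cell development, differed by 0.15, Prkcq, the theta form of protein kinase C, by -0.07, and Ubash3a by 0.04. Fyb, an adaptor that platelets and myeloid cells also use, had the opposite layout. It measured 261 to 289.6 CPM in burn (median 263) and 320.4, 275, 234 and 278 CPM in NC 1 to 4. NC 1, the library with the most platelet and neutrophil marker RNA, was its highest and NC 3 its lowest, and the log2 difference was -0.04 (SE 0.09). NC 4, with the next most neutrophil marker RNA, lay within the burn range. The part of platelets and myeloid cells in the Fyb values was not tested.

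The other genes with a small p in this group were not at the head of the pathway. Rasgrp1, which activates Ras in response to diacylglycerol (ENSMUSG00000027347, chromosome 2, 117279993 to 117343001, minus strand), measured 308, 317, 277, 320.4, 311 and 309.8 CPM in burn 1 to 6 and 215, 275, 239.8 and 267 CPM in NC 1 to 4. The groups did not overlap, though burn 3 and NC 2 nearly met. Its log2 difference was 0.30 (SE 0.09, 95% interval 0.10 to 0.50), with an unadjusted p of 0.006 and an edgeR adjusted p of 0.39. Dgka, a kinase that removes diacylglycerol (ENSMUSG00000025357, chromosome 10, 128720134 to 128744855, minus strand), measured 427 to 553 CPM in burn (median 459) and 332, 385, 411 and 428 CPM in NC 1 to 4. NC 4 alone reached the burn range, and the log2 difference was 0.29 (SE 0.11, edgeR adjusted p 0.40).

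Camk4 and Txk completed the signalling genes with small p. Camk4, a calcium-dependent kinase, measured 26.0 to 33.1 CPM in burn (median 27.3) and 19.1, 27.6, 22.1 and 25.6 CPM in NC 1 to 4. For Txk, a kinase of the Tec family, the values were 55.3 to 78.7 CPM in burn (median 64.3) and 58.5, 59.1, 52.3 and 54.5 CPM in NC 1 to 4. Groups overlapped for both, with log2 differences of 0.25 and 0.22 and an edgeR adjusted p of 0.44 each. Without NC 1, which was lowest for Camk4, its difference was 0.16.

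Of the 4 transcription and chromatin factors, 0 passed and 2 had an unadjusted p under 0.05. Both had higher values in burn, against 4.25% of all genes. Ets1, a transcription factor of T, B and NK cells (ENSMUSG00000032035, chromosome 9, 32636221 to 32757820, plus strand), measured 1410.1, 1566.5, 1379, 1461, 1404 and 1491 CPM in burn 1 to 6 and 966, 1272, 1278 and 1262 CPM in NC 1 to 4. Every burn library lay above every NC library, and NC 1 lay well below the other NC libraries. The log2 difference was 0.28 (SE 0.11, unadjusted p 0.023, edgeR adjusted p 0.40), and 0.19 without NC 1. Satb1, a chromatin organiser, measured 338 to 422 CPM in burn (median 365) and 294, 269, 348 and 335 CPM in NC 1 to 4. NC 3 alone fell within the burn range, and the log2 difference was 0.26 (SE 0.10, edgeR adjusted p 0.41). Bcl11b, which keeps cells in the T lineage, differed by 0.12 (SE 0.12).

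Gata3 had the lowest log2 difference of the 37, -0.31 (SE 0.17, unadjusted p 0.095, edgeR adjusted p 0.50). It measured 14.5 to 18.3 CPM in burn (median 16.9) and 19.0, 20.4, 28.8 and 13.4 CPM in NC 1 to 4. NC 3 was its highest library and NC 4 its lowest. The difference rests on these libraries, with -0.13 without NC 3 and -0.52 without NC 4. Of 6 genes of type 2 innate lymphoid cells, which also use Gata3, 3 could be tested, and all had lower values in burn. Of the 3, 1 had an unadjusted p under 0.05, against 7% of all genes with burn lower. None was called by edgeR or DESeq2. Klrg1, which NK cells share, had the smallest p of these, with 12.2 ± 4.52 CPM in burn and 26.5 ± 21.9 CPM in NC (SD, n = 6 and 4).

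Among the 4 genes of resting cells and trafficking, Ablim1 had the smallest p of all 37. Ablim1 encodes an actin-binding LIM protein (ENSMUSG00000025085, chromosome 19, 57032733 to 57314919, minus strand). It measured 740.3, 825, 748, 753, 751 and 781 CPM in burn 1 to 6 and 592, 602, 603 and 668 CPM in NC 1 to 4. The groups did not overlap. Its log2 difference was 0.31 (SE 0.08, 95% interval 0.13 to 0.50), with an unadjusted p of 0.0028, an edgeR adjusted p of 0.39 and a DESeq2 adjusted p of 0.0045. Over 20 alternative settings the log2 difference stayed between 0.24 and 0.36, and the adjusted p (edgeR, limma or DESeq2) between 0.0045 and 0.86. Klf2, S1pr1, the receptor that lets T cells leave lymph nodes, and Dapl1, a marker of naive T cells, differed by -0.06, 0.11 and 0.02, with groups that overlapped.

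**Figure D5:**
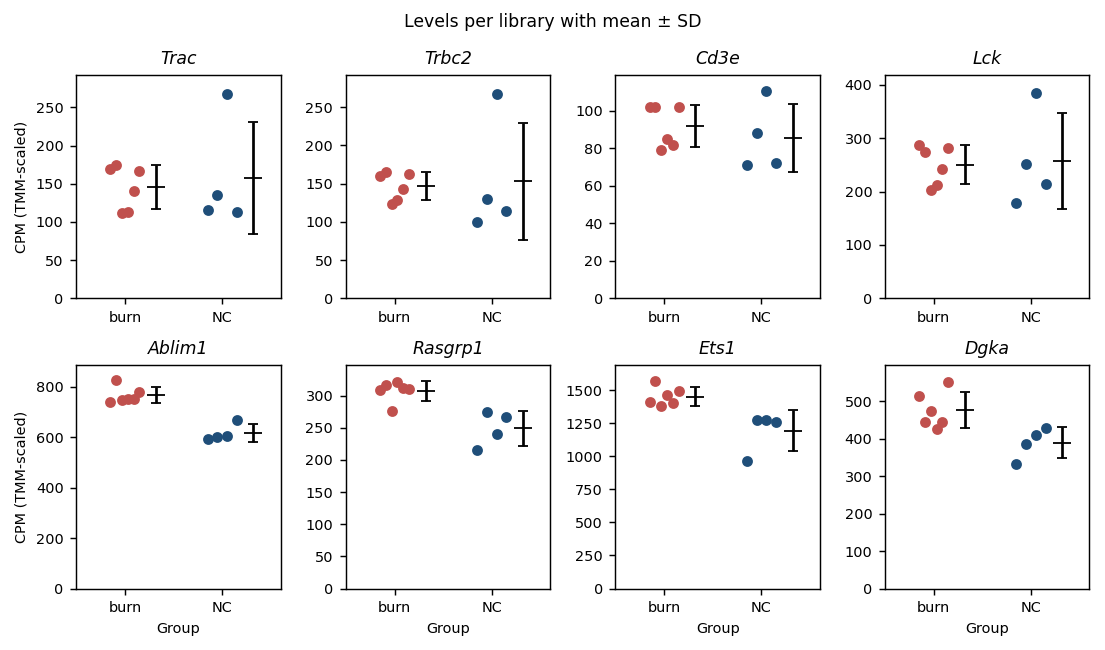
CPM per library (vertical axes, from 0) for genes at the head of the receptor pathway and for genes with the smallest p, with burn left of NC and bars for mean ± SD. NC 3 stands above all burn libraries for Trac, with 267 CPM against at most 175 CPM in burn, while every burn point lies above every NC point for Ablim1, Rasgrp1 and Ets1.

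Groups did not overlap for 3 of the 37 genes, Ablim1, Rasgrp1 and Ets1, all higher in burn, against 1.34% of all genes. It was 0 of 37 with burn lower, against 0.683%, and over both directions the share of all genes was 2.03%. The 37 were chosen with earlier results known, so these shares only describe the list. B cell markers were higher in burn for 15 of 15, with 0 called by edgeR or DESeq2. Of the 15, 4 had an unadjusted p under 0.05, against 4.25% of all genes with burn higher. The B cell markers summed to 4762 to 6865 CPM in burn and to 4719, 4346, 4715 and 5728 CPM in NC 1 to 4. NC 4 was the highest NC library for both the B cell sum and Ablim1. It was not for the others: Rasgrp1 was highest in NC 2 (275 CPM, NC 4 267 CPM) and Ets1 in NC 3 (1278 CPM, NC 4 1262 CPM). The part of B cells in the 3 genes was not tested.

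Counts were also set against the summed counts of Cd3d, Cd3e and Cd3g in the same library, to describe the other 34 genes per CD3 signal. These sums were 12334 to 15554 in burn and 8762, 12527, 16873 and 10615 in NC 1 to 4. On this scale 0 of 34 passed in edgeR, against 0% of all genes, and 1 had an unadjusted p under 0.05, against 8.84% of all genes. That gene was Gata3, with 41.8 ± 2.17 in burn and 55.1 ± 11.4 in NC per 1000 CD3 counts (SD, n = 6 and 4), a log2 difference of -0.40 (SE 0.18, unadjusted p 0.039, edgeR adjusted p 0.52). Without NC 1 it was -0.26 (unadjusted p 0.16), and without NC 2 or any 1 burn library the unadjusted edgeR p was 0.053 to 0.086. Without NC 4 it was larger, at -0.49 (unadjusted edgeR p 0.021, adjusted p 0.39). Without NC 3, 4 genes had an unadjusted p under 0.05, namely Cd8a, Fyb, Prkcq and Gata3, all with lower values in burn. None was called (edgeR adjusted p 0.10 to 0.13). The 8.84% above is for all libraries, and the share of all genes without NC 3 was not counted. The unadjusted edgeR p of Prkcq was 0.025, and an adjusted p of 0.13 there requires that many other genes also had small p-values. The 4 genes therefore cannot be read as a rise above the share of all genes.

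Cd247 followed the CD3 chains closely, at 311 ± 8.5 in burn and 303 ± 5.94 in NC per 1000 CD3 counts. Skap1 did so too, at 230.3 ± 6.03 in burn and 214 ± 9.62 in NC. Both had a log2 SE of 0.16 in this fit, which estimates spread partly from all genes. Small differences per CD3 count could hardly pass there, so the lack of calls says little about genes that follow CD3. Ablim1 measured 1959.7 ± 205 in burn and 1778 ± 560.1 in NC, and Ets1 3712 ± 379 in burn and 3368 ± 842 in NC, differences smaller than the SD within NC. Without NC 3 both log2 differences on this scale changed sign, to -0.05 for Ablim1 and -0.02 for Ets1, against 0.14 and 0.14 with all libraries. Burn and NC overlapped for all 34 genes, and 13 were higher and 21 lower in burn, with a median log2 difference of -0.04 beside -0.13 over all genes. That count depends on single libraries: without NC 3 it was 6 higher and 28 lower, and without NC 1 it was 17 and 17.

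Other genes of the pathway did not pass either. Of 30 further receptor signalling genes, 0 were called by edgeR or DESeq2, and 2 had an unadjusted p under 0.05. Both were higher in burn, against 4.25% of all genes. In all, 21 had higher and 9 lower values in burn, and the median log2 difference was 0.08. Nfatc3, a transcription factor that calcium signals activate, had 409 ± 39.0 CPM in burn and 329 ± 45.7 CPM in NC (SD, n = 6 and 4). Its groups did not overlap, and its edgeR adjusted p was 0.40. Fyn, a kinase related to Lck, had 206 ± 17.9 CPM in burn and 237 ± 42.2 CPM in NC (edgeR adjusted p 0.54).

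Genes of naive T cells had higher values in burn for 9 of 10, with a median log2 difference of 0.19. Of the 10, 0 were called by edgeR or DESeq2 and 2 had an unadjusted p under 0.05. Both were higher in burn, against 4.25% of all genes. Foxo1, a transcription factor that maintains naive T cells, had 223 ± 25.4 CPM in burn and 189 ± 16.1 CPM in NC (edgeR adjusted p 0.43). Nsg2 had 136 ± 16.3 CPM in burn and 109.6 ± 22.0 CPM in NC, and Trib2 had 157 ± 17.8 CPM in burn and 135 ± 21.2 CPM in NC. Groups overlapped for all 3 genes.

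Genes of other T lineages gave 0 calls in edgeR and 1 in DESeq2. Of 8 gamma delta T cell genes listed, 4 were tested and the others not analysed here. Blk, a kinase that B cells also express, had the smallest p, with 131 ± 22.0 CPM in burn and 97.5 ± 23.2 CPM in NC (edgeR adjusted p 0.40), and the delta chain constant region Trdc had 7.90 ± 1.91 CPM in burn and 7.35 ± 2.49 CPM in NC. Of 6 thymocyte genes, 4 were tested, with 1 higher and 3 lower in burn and a median log2 difference of -0.27. The higher one was Cd1d1, a lipid-presenting molecule that many blood cells carry. It had 30.3 ± 1.41 CPM in burn and 25.1 ± 0.476 CPM in NC, with groups that did not overlap (edgeR adjusted p 0.39, DESeq2 adjusted p 0.043). Arpp21 had 2.32 ± 1.63 CPM in burn and 4.31 ± 2.84 CPM in NC (edgeR adjusted p 0.49), with groups that overlapped. Rag1, which cuts receptor genes in thymocytes, had 2.76 ± 2.8 CPM in burn and 3.85 ± 4.74 CPM in NC.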

How the data were processed

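Blood RNA of mice was sequenced as 10 libraries, from TRIzol extracts and a paired-end mRNA kit per the labels' protocols. The authors deposited 1 table with a read count for every gene and library, per the file headers. Deposited FPKM values stand beside the counts and equal them over column total and gene length, to within 5.11e-15. The submitters' processing notes name mm10. Aligner, counting program and strand setting are not given in these sources.

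Genes were kept by filterByExpr (minimum count 10) and libraries scaled by TMM. The quasi-likelihood test of edgeR 4.0.16 (R 4.3.3) compared burn with NC, with Benjamini-Hochberg adjustment over 17268 genes and a threshold of 0.05. DESeq2 1.42.0 and limma 3.58.1 on log2(FPKM + 1) were alternatives, besides other scalings, filters, a replicate block and libraries left out. The fits were tested on simulated data. SE is the log2 difference over the root of F. Ratios used log2(CPM + 1) and exact permutation. Replicates all differed beyond sampling noise (chi-square per degree of freedom at least 14.2 in burn and 69.3 in NC).

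The 37 genes, the lists and the ratios were chosen with earlier results of these data known. The naming rule took values per library for receptor chains, coreceptors, Lck, Zap70 and the 6 genes with the smallest p, and up to 3 genes of each further list; Txk, Fyb, Gata3 and the other genes given values were added after their values were seen. Positions come from GENCODE release M21 (mm10). The values of 1 further signalling gene are not reported here.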

Additional observations from a re-analysis of the deposited data

Results flagged for a closer look

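Each of the 37 genes and both ratios was examined in burn and in NC (78 sets of values) for a highest or lowest library that stood far from the others of its group, which chance alone gives in about 1 of 20 groups. There were 5. Trac was highest in NC 3 at 267 CPM, with the next NC library at 135 CPM. Cd2, an adhesion receptor, was highest in burn 2 at 317 CPM, with the next burn library at 260.0 CPM. Rasgrp1 was lowest in burn 3 at 277 CPM, with the next at 308 CPM. Ets1 was lowest in NC 1 at 966 CPM, with the next at 1262 CPM. Ablim1 was highest in NC 4 at 668 CPM, with the next at 603 CPM.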

How the results depend on the processing

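Over all genes, the number called was 85 in DESeq2, 1 in limma on log2(FPKM + 1) and 1 on log2(FPKM + 0.1). It was 0 to 10 without any 1 library (10 without burn 1 and 3 without NC 4). Without NC 2 and NC 3 it was 376 of 18195 genes tested. Of the T cell genes, DESeq2 called 1 (Ablim1). Without NC 2 and NC 3, edgeR called 1 of 34 relative to CD3 counts, Fyb (edgeR adjusted p 0.035). The share of all genes called on that scale was not counted, so this call cannot be set against it. The unadjusted edgeR p of Fyb was 0.0034, and so small an adjustment requires that many other genes passed too. The call is therefore not particular to Fyb. With TMM scaling and the same libraries, edgeR called 1 of the 37, the adaptor Skap1, at 0.60 (edgeR adjusted p 0.037). Skap1 was 1 of the 376 genes called in that setting. There the median log2 difference of the 37 was 0.32. That median ran from -0.05 to 0.21 without any 1 library. In all, 645 of 740 values of single genes kept their direction and side of the threshold, and 93 changed sign, none of them called.

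The Cd8a to Cd4 difference kept its direction in every alternative run, at -0.38 to -0.24 without any 1 library. With the replicate block it was -0.32 (exact sign-flip permutation p = 0.125, the smallest 4 pairs allow). Most replicate numbers showed no sign of pairing the libraries, though so few correlations cannot exclude it. Deviations of same-numbered libraries correlated at -0.07, -0.03, -0.12 and 0.50, and 1 of 4 NC libraries, NC 4, correlated best with its own number. In edgeR with the replicate block, 0 genes were called. The Trbc1 to Trbc2 difference, near 0, was 0.0029 with the block and -0.11 to 0.10 without any 1 library.

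The log2 differences that changed sign were as follows. With median-of-ratios scaling: Trbc1 -0.021. With scaling that left out haemoglobin and mitochondrial genes: Trbc1 -0.045, Cd5 -0.0028, Ubash3a -0.0027 and Dapl1 -0.022. With no filter on low counts: Trbc1 -0.043, Cd5 -0.0012 and Dapl1 -0.022. With a minimum count of 50: Trbc1 -0.018. In DESeq2: Trbc1 -0.021. In limma on log2(FPKM + 1): Trac 0.0100, Trbc2 0.097, Cd3g 0.092, Thy1 0.034, Lck 0.059, Zap70 0.043, Fyb 0.014 and Klf2 0.0013. In limma on log2(FPKM + 0.1): Trac 0.010, Trbc2 0.098, Cd3g 0.094, Thy1 0.035, Lck 0.060, Zap70 0.046, Fyb 0.014 and Klf2 0.0014. With the replicate block: Trbc2 0.028 and Cd3g 0.033. Without NC 1 and NC 3 together: Trac 0.20, Trbc2 0.24, Cd3g 0.21, Icos 0.054, Thy1 0.019, Lck 0.077, Zap70 0.027, Lat 0.10, Prkcq 0.013 and Klf2 0.042. Without NC 2 and NC 3 together: Trac 0.32, Trbc2 0.43, Cd3g 0.40, Cd8a 0.18, Cd8b1 0.35, Icos 0.035, Thy1 0.36, Lck 0.33, Zap70 0.36, Lat 0.20 and Klf2 0.0078. Over libraries left out 1 at a time, the values ran Cd2 -0.057 to 0.28, Cd247 -0.040 to 0.34, Cd27 -0.053 to 0.16, Cd28 -0.032 to 0.11, Cd3d -0.030 to 0.45, Cd3e -0.017 to 0.22, Cd3g -0.20 to 0.27, Cd5 -0.099 to 0.22, Cd6 -0.029 to 0.33, Cd8b1 -0.38 to 0.035, Dapl1 -0.14 to 0.32, Fyb -0.15 to 0.034, Icos -0.18 to 0.0061, Klf2 -0.15 to 0.036, Lat -0.32 to 0.11, Lck -0.18 to 0.19, Thy1 -0.25 to 0.10, Trac -0.30 to 0.23, Trbc1 -0.16 to 0.21, Trbc2 -0.23 to 0.32, Ubash3a -0.059 to 0.10, Zap70 -0.21 to 0.15. The cause was not tested.

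The depth was ample for every T cell gene, and the spread among 4 NC libraries limits what can be detected. Reads shared by Trbc1 and Trbc2 and the origin of the NC libraries limit how their values can be read.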
